A study of Homo sapiens with 6 samples.

Results

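The 30 genes described here are those of sterol synthesis, sterol uptake and the control of both by SREBP2, taken by name from the 28563 genes of the deposited expression table. All 30 were in the table. 21 of them are counted to the route from acetyl-CoA to cholesterol: its enzymes, the scaffold protein ERG28 and GGPS1, an enzyme of a side branch. Another 6 encode the transcription factor SREBP2 (the gene SREBF2) with its escort, sensors and proteases, and 3 act in sterol uptake and transport. RNA-seq was done on the human hepatocellular carcinoma line labelled HepG2, grown in 10 cm plates and treated for 24 h with PD (polydatin, a glucoside of resveratrol) at 336 µM by the labels or with DMSO, the vehicle of the controls. Each treatment had 3 plates of this single line, divided at random between the treatments, and the p-values below measure the spread between plates.

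Cells make cholesterol from acetyl-CoA through mevalonate, the isoprenoid farnesyl pyrophosphate, squalene and lanosterol. When sterol in the endoplasmic reticulum is low, SCAP carries SREBP2 to the Golgi, where the proteases encoded by MBTPS1 and MBTPS2 release a fragment that enters the nucleus and switches on most genes of the route. When sterol is high, INSIG proteins hold SCAP and SREBP2 back, and INSIG1 is itself a target of SREBP2. The liver is a main site of this synthesis, and liver cell lines have long been used to study it.

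Libraries held 16763318 to 17274927 fragments with DMSO and 16308476 to 18071632 with PD, as worked back from the FPKM (fragments on a gene scaled by its length and the library total). No pair of libraries agreed within sampling noise. The label HepG2 was checked against 16 hepatocyte markers, of which 9 had values and the other 7 were not analysed here. HNF4A, SERPINA1, APOA1, FGG, TF and CYP3A4 were at or near 0, with no library above 0.172 FPKM, which goes against the label. CPS1 fell from 222 to 228 FPKM with DMSO to 106 to 111 with PD. RBP4 went the other way, from a mean of 0.391 FPKM with DMSO to 1.30 with PD, and stayed under 2 FPKM. The summed level of the 9 hepatocyte markers, nearly all of it CPS1, was 222 to 229 FPKM with DMSO and 107 to 113 with PD. Its fall is thus that of CPS1 and not of the markers as a set. Epithelial markers, 5 of 6 with values, summed to 103 to 109 FPKM with DMSO and 126 to 132 with PD, and mesenchymal markers, 5 of 6 with values, to 24.7 to 26.3 and 33.5 to 35.1. The members did not move alike. KRT8 rose from a mean of 50.1 to 68.9 FPKM, CLDN4 from 7.75 to 11.99 and VIM from 20.7 to 29.6. KRT18, EPCAM, COL1A1, PDGFRB and COL3A1 overlapped between treatments. CDH1 (at most 0.145 FPKM) and DCN (at most 0.532 FPKM) were lower in every PD library. Blood cell markers (3 of 5 with values) summed to at most 0.721 FPKM and endothelial markers (3 of 4) to at most 0.0681 FPKM. Whether the shifts in marker levels had a part in the changes below was not tested, and in RNA from whole plates a change in the share of cells and a change in RNA per cell cannot be told apart.

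PD-treated cells had higher levels of most sterol genes, among them the sensor INSIG1 and the squalene synthase FDFT1, which had the highest log2 fold changes of the 30 on the log2(FPKM + 1) scale. By the ratio of means, with a pseudocount of 0.1 and with limma voom on fragments, TM7SF2 was above FDFT1. By limma on log2(FPKM + 1) with Benjamini-Hochberg adjustment over the 14400 genes tested, 25 of the 30 genes rose at an adjusted p of at most 0.05, beside 31.9% of all genes tested. LBR and MBTPS2 fell, beside 26.2% of all genes, and GGPS1, SREBF2 and INSIG2 did not pass the test, so that 27 of 30 passed in either direction, beside 58.1%. A further requirement of at least a 2-fold change left 5 genes, all higher (INSIG1, FDFT1, DHCR7, SQLE and TM7SF2), where the background was 2.04%, and none lower (1.57%). TM7SF2 was just under 2-fold without DMSO replicate 1 (0.99 on the log2 scale), DMSO replicate 2 (0.98) or PD replicate 3 (0.98), which left 4 genes, or 5 without DMSO replicate 2, where MSMO1 (1.04) was called. 13 genes rose by at least 1.5-fold, with a background of 9.45%, and none fell by as much (6.71%). In 25 genes every PD library lay above every DMSO library (35.6% of all genes), in 2 every PD library lay below (29.9%), and in 3 the libraries overlapped. The median log2 fold change of the 30 genes was 0.54, and that of all genes tested was 0.01. Among all genes ranked from the highest log2 fold change, INSIG1 was at place 25, FDFT1 at 78, DHCR7 at 164, SQLE at 242 and TM7SF2 at 265. In hg38 with GENCODE 44, INSIG1 lies at chr7:155297776-155310235, DHCR7 at chr11:71428193-71452868 and TM7SF2 at chr11:65111845-65116384. The values of INSIG1 and TM7SF2 matched their GENCODE 44 exon lengths, UTRs included, of 3650 and 3408 bases. Those of DHCR7 did not match its exon length of 6878 bases, so which of its exons they cover is not known here.

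**Figure D1:**
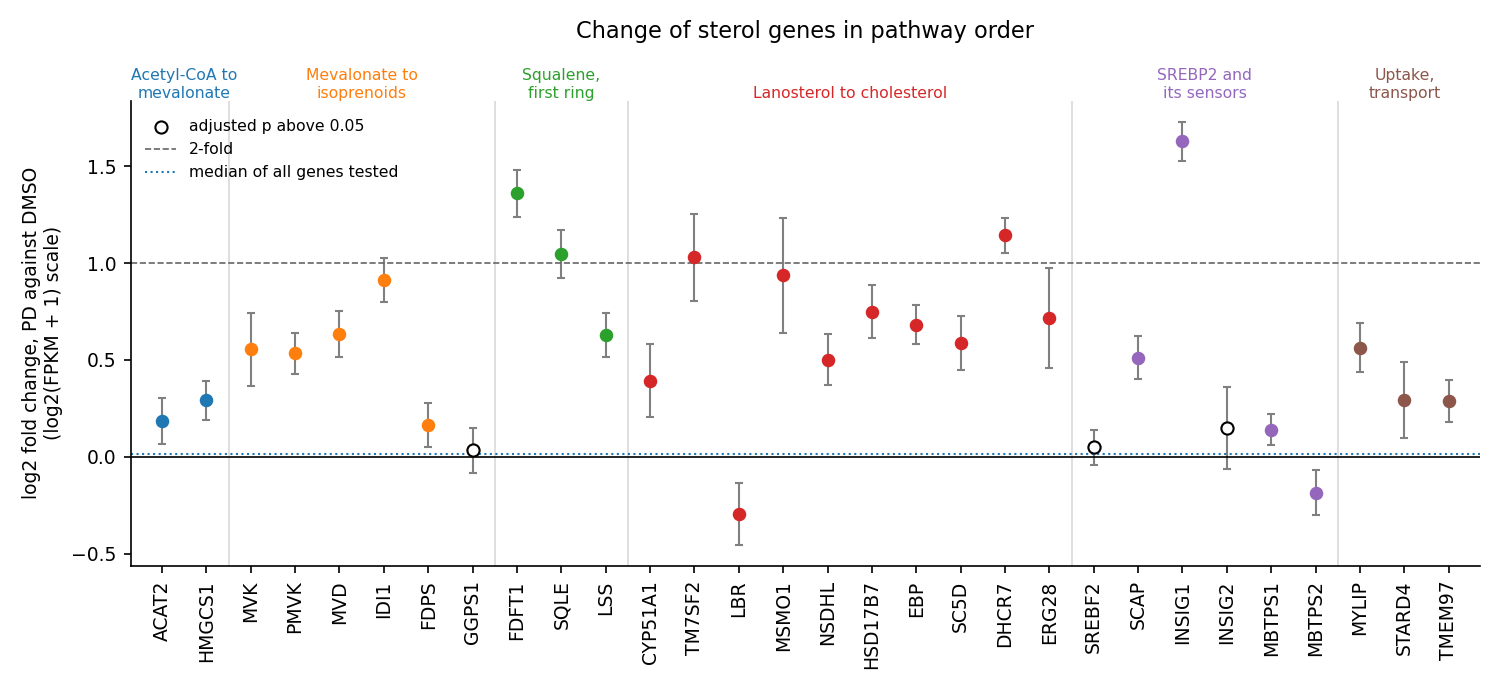
Log2 fold change of PD against DMSO on the log2(FPKM + 1) scale (y axis) for the 30 sterol genes in pathway order (x axis), with bars for the 95% confidence interval of the limma fit and open points for genes with an adjusted p above 0.05. INSIG1 stands highest at 1.63 and LBR lowest at −0.30, and the dotted line marks the median of all genes tested, 0.01.

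Promoters of several of these genes are read by SREBP2 together with the factors NF-Y and Sp1. A RefSeq window (build GRCh38.p14) from 250 bases before to 50 bases after the gene start was given for 27 of the 30 genes, and a gene with several windows counted as holding a motif if any of them did. It was searched on both strands for TCACNCCAC (a form of the sterol regulatory element), CCAAT (the NF-Y box) and GGGCGG (the Sp1 box), and matches of different motifs could overlap. The sterol element in this form was in 1 of the 27 windows, that of SREBF2, or 3.70%, and in 1.39% of the 27305 genes with a window. CCAAT was in 20 of the 27, or 74.1%, beside 39.7% of all genes with a window and 43.1% of those that were also tested. GGGCGG was in 23 of the 27, or 85.2%, beside 48.3% of all genes and 77.4% of those tested. All 11 genes with a window that rose by at least 1.5-fold held both CCAAT and GGGCGG, while of the 16 others with a window 9 held CCAAT and 12 held GGGCGG. Among these 9 were MVK and NSDHL, with 5 CCAAT matches each, and SREBF2 and GGPS1, which did not pass the test. The share of all genes holding both motifs was not counted, and a link between motif and change was not tested. Counted on the strand of the gene alone, CCAAT was in 10 of the 27 windows.

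Below are bases before a RefSeq start of 5 of the genes. Chosen were the sensor with the largest change (INSIG1) and the sensor that did not pass the test (INSIG2). With them are 2 enzymes between lanosterol and cholesterol that rose strongly (DHCR7 and MSMO1) and the transcription factor itself (SREBF2). Each stretch is read 5′ to 3′ on the strand of the gene and ends where an annotated exon of the gene begins. Matches to TCACNCCAC or CCAAT on either strand are in capitals.
INSIG1, chr7:155297628-155297775, plus strand: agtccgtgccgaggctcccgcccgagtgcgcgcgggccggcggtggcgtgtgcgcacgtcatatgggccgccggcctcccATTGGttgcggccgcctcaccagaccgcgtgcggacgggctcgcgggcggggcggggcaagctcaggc
INSIG2, chr2:118088221-118088451, plus strand: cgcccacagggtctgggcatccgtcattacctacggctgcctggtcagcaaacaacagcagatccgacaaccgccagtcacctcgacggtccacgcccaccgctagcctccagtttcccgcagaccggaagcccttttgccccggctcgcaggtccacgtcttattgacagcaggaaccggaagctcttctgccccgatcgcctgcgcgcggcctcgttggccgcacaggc
DHCR7, chr11:71448436-71448643, minus strand: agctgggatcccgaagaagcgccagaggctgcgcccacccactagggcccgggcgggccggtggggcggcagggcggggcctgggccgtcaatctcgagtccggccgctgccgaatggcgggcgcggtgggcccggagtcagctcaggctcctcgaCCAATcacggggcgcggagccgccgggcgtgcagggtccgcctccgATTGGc
MSMO1, chr4:165327419-165327666, plus strand: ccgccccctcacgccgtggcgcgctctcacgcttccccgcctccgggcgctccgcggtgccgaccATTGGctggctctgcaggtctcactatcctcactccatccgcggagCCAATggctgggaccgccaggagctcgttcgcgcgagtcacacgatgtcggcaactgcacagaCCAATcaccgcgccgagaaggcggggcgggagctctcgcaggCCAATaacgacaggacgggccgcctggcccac
SREBF2, chr22:41832855-41833104, plus strand: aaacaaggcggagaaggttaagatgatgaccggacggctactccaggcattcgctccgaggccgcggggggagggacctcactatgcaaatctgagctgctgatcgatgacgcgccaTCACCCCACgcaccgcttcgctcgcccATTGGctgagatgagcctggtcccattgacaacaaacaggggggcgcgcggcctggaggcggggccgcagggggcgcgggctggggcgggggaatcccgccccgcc
The stretch from INSIG1 held 1 CCAAT, read on the opposite strand, and that from INSIG2 held none. The MSMO1 stretch held 4 matches to CCAAT, 3 of them on the strand of the gene, and the DHCR7 stretch held 2, 1 on each strand. DHCR7 has another RefSeq window, chr11:71449044-71449293, with no match to CCAAT or GGGCGG in these 250 bases, and both windows lie inside the longer gene span annotated by GENCODE, as they precede RefSeq starts. In SREBF2 the sterol element began at position −133 relative to the start, followed by 1 CCAAT match on the opposite strand. Annotated antisense RNAs run over the SREBF2 stretch and over part of the DHCR7 stretch. Motif matches are letters found in a window and do not show that a factor was bound.

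Along the route from acetyl-CoA to cholesterol, the median change was small at the first steps and larger from squalene onwards. The median log2 fold change was 0.24 for the 2 genes up to mevalonate and 0.54 for the 6 genes from mevalonate to the isoprenoids. It was 1.05 for the 3 genes of squalene and the first ring, and 0.70 for the 10 genes from lanosterol to cholesterol. Single genes ranged, in the same order, from 0.19 to 0.29, 0.03 to 0.91, 0.63 to 1.36 and −0.30 to 1.14, so neighbouring steps overlapped. The summed level of the 21 genes of the route, ERG28 and GGPS1 included, was 323, 330 and 323 FPKM with DMSO and 498, 505 and 503 FPKM with PD. The PD sums were all above the DMSO sums, by a ratio of 1.55 between the means, and the libraries of a treatment lay close together (SD 3.97 FPKM with DMSO and 3.79 with PD). Of these 21 genes, 19 rose, LBR fell and GGPS1 did not pass the test.

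**Figure D2:**
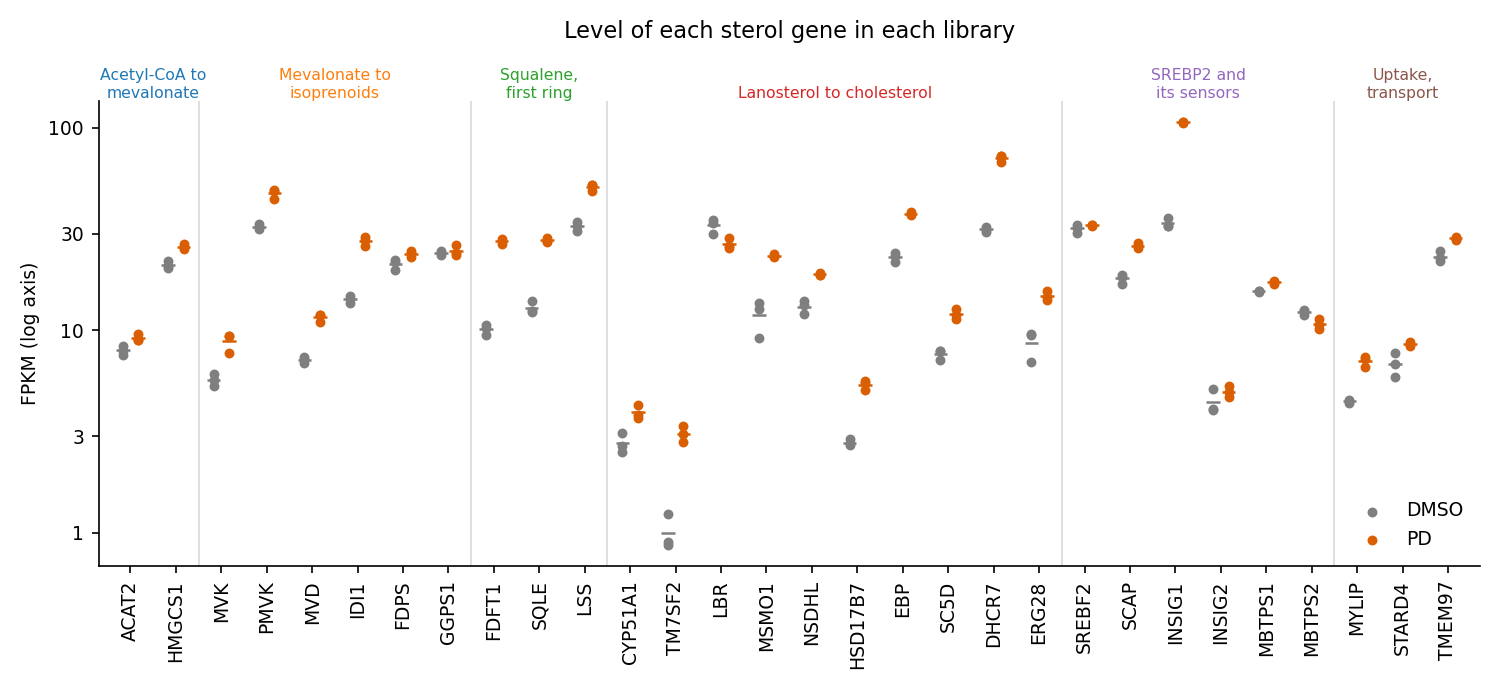
Level of each of the 30 sterol genes in FPKM (y axis, log scale) in every library, in pathway order (x axis), with points for the 3 DMSO and 3 PD libraries and short lines for their means. INSIG1 stands apart in the PD libraries at a mean of 106 FPKM, while SREBF2, INSIG2 and GGPS1 overlap between treatments.

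At the entry to the pathway, ACAT2 joins acetyl-CoA units and HMGCS1 makes the substrate from which mevalonate is formed. ACAT2 was at 7.96 ± 0.385 FPKM with DMSO and 9.18 ± 0.356 with PD (SD, n = 3) (log2 fold change 0.19, limma adjusted p = 0.016). HMGCS1 was at 20.99 ± 0.892 FPKM with DMSO and 25.9 ± 0.791 with PD (log2 fold change 0.29, adjusted p = 0.00090). Both rose, by less than 1.5-fold, and ACAT2 did not pass without DMSO replicate 1 or without PD replicate 2 (0.16 in both cases).

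Mevalonate is phosphorylated by MVK and then PMVK, decarboxylated by MVD and isomerised by IDI1 to the building blocks of all isoprenoids. IDI1 was at 13.6, 14.8 and 14.3 FPKM with DMSO and 28.7, 27.9 and 26.2 FPKM with PD. The treatments did not overlap, and the rise was the largest of these 6 genes (log2 fold change 0.91, SE 0.05, limma adjusted p = 8.8e-06). Reads of IDI1 could have been shared with the named pseudogenes it has. MVD was at 6.86, 7.35 and 7.20 FPKM with DMSO and 11.95, 11.9 and 10.97 FPKM with PD, with all PD libraries higher (log2 fold change 0.63, SE 0.05, adjusted p = 4.5e-05). MVK rose from a mean of 5.68 to 8.84 FPKM (log2 fold change 0.56, adjusted p = 0.00083) and PMVK from 32.5 to 47.6 FPKM (log2 fold change 0.53, adjusted p = 5.9e-05). These 4 enzymes thus rose together, each with treatments that did not overlap.

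FDPS makes farnesyl pyrophosphate, from which the route branches to squalene by FDFT1 and to the longer geranylgeranyl pyrophosphate by GGPS1. FDPS was at 21.3 ± 1.17 FPKM with DMSO and 23.9 ± 0.764 with PD, a small rise (log2 fold change 0.16, adjusted p = 0.023) of a gene with 8 named pseudogenes. It did not pass with the other scalings, without DMSO replicate 2 (0.12), without PD replicate 1 (0.16) or without PD replicate 2 (0.14). GGPS1 was at 24.7, 23.5 and 24.05 FPKM with DMSO and 26.5, 23.5 and 24.1 FPKM with PD. Its libraries overlapped and it did not pass the test (log2 fold change 0.03, 95% interval −0.08 to 0.15, adjusted p = 0.60). FDFT1, on the sterol side of the branch, was at 9.44, 10.3 and 10.6 FPKM with DMSO and 26.6, 28.3 and 27.7 FPKM with PD. Every PD library was above every DMSO library, by a ratio of 2.72 between the means (log2 fold change 1.36, SE 0.05, adjusted p = 3.2e-06). Within each library the log2 ratio of FDFT1 to GGPS1 was −1.30, −1.12 and −1.11 with DMSO and 0.01, 0.25 and 0.19 with PD. FDFT1 was thus below GGPS1 in all DMSO libraries and at or above it in all PD libraries, a difference of 1.33 (two-sided exact permutation p = 0.10, the smallest that 3 against 3 libraries allow, and 0.12 adjusted over the 6 ratios tested).

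Squalene is then oxidised by SQLE, a rate-controlling enzyme of the route, and folded into lanosterol by LSS. SQLE was at 12.4, 14.01 and 12.5 FPKM with DMSO and 27.6, 27.3 and 28.5 FPKM with PD. The PD libraries were about alike and all above the DMSO libraries (ratio of means 2.15, log2 fold change 1.05, SE 0.05, adjusted p = 7.2e-06). LSS was at 30.8, 32.8 and 34.4 FPKM with DMSO and 48.7, 52.04 and 52.3 FPKM with PD, again without overlap (log2 fold change 0.63, SE 0.05, adjusted p = 4.1e-05). The log2 ratio of SQLE to LSS was higher with PD by 0.42 (exact permutation p = 0.10, adjusted 0.12).

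Lanosterol loses methyl groups through CYP51A1, MSMO1, NSDHL and HSD17B7, with ERG28 as a scaffold for the demethylation enzymes. MSMO1 was at 12.7, 13.7 and 9.18 FPKM with DMSO and 23.2, 22.98 and 23.7 FPKM with PD. The DMSO replicate 3 library was the lowest, and all PD libraries were higher than the DMSO libraries (log2 fold change 0.94, SE 0.13, adjusted p = 0.00057). ERG28 was at 9.52, 9.56 and 6.99 FPKM with DMSO and 14.6, 15.7 and 14.1 FPKM with PD. DMSO replicate 3 was lowest here too, with no overlap between treatments (log2 fold change 0.72, SE 0.11, adjusted p = 0.0011). Without that library the log2 fold change was 0.78 for MSMO1 and 0.58 for ERG28. HSD17B7, a gene with 2 named pseudogenes, was at 2.71, 2.76 and 2.91 FPKM with DMSO and 5.49, 5.05 and 5.61 FPKM with PD, with the treatments apart (log2 fold change 0.75, SE 0.06, adjusted p = 3.9e-05). NSDHL rose from a mean of 13.1 to 18.9 FPKM (log2 fold change 0.50, adjusted p = 0.00023) and CYP51A1 from 2.77 to 3.94 FPKM (log2 fold change 0.39, adjusted p = 0.0045).

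TM7SF2 and LBR encode enzymes that reduce the same double bond in the sterol ring, and LBR is also a protein of the inner nuclear membrane that holds chromatin. TM7SF2 was at 0.9002, 0.875 and 1.23 FPKM with DMSO and 2.81, 3.08 and 3.36 FPKM with PD, the lowest levels among the 30 genes, resting on 53, 50 and 72 fragments with DMSO and 173, 184 and 187 with PD. All PD libraries were higher, by a ratio of 3.07 between the means (log2 fold change 1.03, SE 0.10, adjusted p = 9.4e-05), and on this scale the added 1 FPKM lowers the fold change of so low a gene. It was 1.54 with a pseudocount of 0.1 and 1.62 with limma voom on fragments. LBR was at 33.8, 35.2 and 30 FPKM with DMSO and 28.5, 25.4 and 26.2 FPKM with PD. All PD libraries were lower (log2 fold change −0.30, SE 0.07, adjusted p = 0.0073), so that the pair moved in opposite directions. The log2 ratio of LBR to TM7SF2 was 4.20, 4.27 and 3.79 with DMSO and 2.95, 2.70 and 2.64 with PD. It was lower in every PD library, with a difference between means of −1.33 (exact permutation p = 0.10, adjusted 0.12). Levels of LBR stayed above those of TM7SF2 in every library.

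The last steps move and remove double bonds through EBP, SC5D and DHCR7. DHCR7, the enzyme that makes cholesterol from its last precursor in one branch of the route, was at 30.7, 31.3 and 32.4 FPKM with DMSO and 67.8, 72.3 and 72.2 FPKM with PD. All PD libraries were higher, by a ratio of 2.25 between the means (log2 fold change 1.14, SE 0.04, adjusted p = 2.6e-06). EBP, a sterol isomerase, was at 21.8, 24.04 and 23.3 FPKM with DMSO and 37.01, 38.2 and 37.6 FPKM with PD, with no overlap (log2 fold change 0.68, SE 0.04, adjusted p = 1.6e-05). SC5D, a sterol desaturase, was at 7.88, 7.93 and 7.12 FPKM with DMSO and 12.7, 11.8 and 11.4 FPKM with PD, also without overlap (log2 fold change 0.59, SE 0.06, adjusted p = 0.00014).

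Among the control genes, the transcripts of SREBP2 itself and of its sensors moved unequally. SREBF2 was at 30.4, 33.2 and 31.95 FPKM with DMSO and 32.7, 32.98 and 33.2 FPKM with PD. Its libraries overlapped, and the interval of its log2 fold change ran from −0.04 to 0.14 (adjusted p = 0.32). SCAP, its escort, was at 16.97, 18.4 and 18.8 FPKM with DMSO and 25.95, 27.1 and 25.5 FPKM with PD. Every PD library was higher (log2 fold change 0.51, SE 0.05, adjusted p = 9.5e-05), and the log2 ratio of SREBF2 to SCAP was lower with PD by a difference of −0.46 (exact permutation p = 0.10, adjusted 0.12). SREBP2 is controlled by cleavage, and transcript levels do not measure that step.

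INSIG1 was at 32.6, 35.9 and 32.5 FPKM with DMSO and 106, 106 and 107 FPKM with PD. The PD libraries were nearly equal and all far above the DMSO libraries, with a ratio of 3.15 between the means (log2 fold change 1.63, SE 0.04, adjusted p = 1.4e-06). INSIG2, its less sterol-responsive relative, was at 4.03, 5.15 and 4.07 FPKM with DMSO and 5.30, 4.67 and 4.98 FPKM with PD. Its libraries overlapped, DMSO replicate 2 being high, and it did not pass the test (log2 fold change 0.15, 95% interval −0.06 to 0.36, adjusted p = 0.20). Without DMSO replicate 2 it passed the test (log2 fold change 0.24, adjusted p = 0.023). The log2 ratio of INSIG1 to INSIG2 was 2.74, 2.59 and 2.73 with DMSO and 4.08, 4.24 and 4.17 with PD. It was higher in every PD library, by 1.48 (exact permutation p = 0.10, adjusted 0.12), so that INSIG1 stood further above INSIG2 in each of them.

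The proteases moved a little and in opposite directions. MBTPS1, the protease of the first cut, was at 15.6 ± 0.111 FPKM with DMSO and 17.3 ± 0.271 with PD (log2 fold change 0.14, adjusted p = 0.0094). MBTPS2, which makes the second cut, was at 12.3 ± 0.313 FPKM with DMSO and 10.7 ± 0.609 with PD (log2 fold change −0.19, adjusted p = 0.015) and did not pass without PD replicate 2 (−0.15). The median log2 fold change of the 6 control genes was 0.14.

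**Figure D3:**
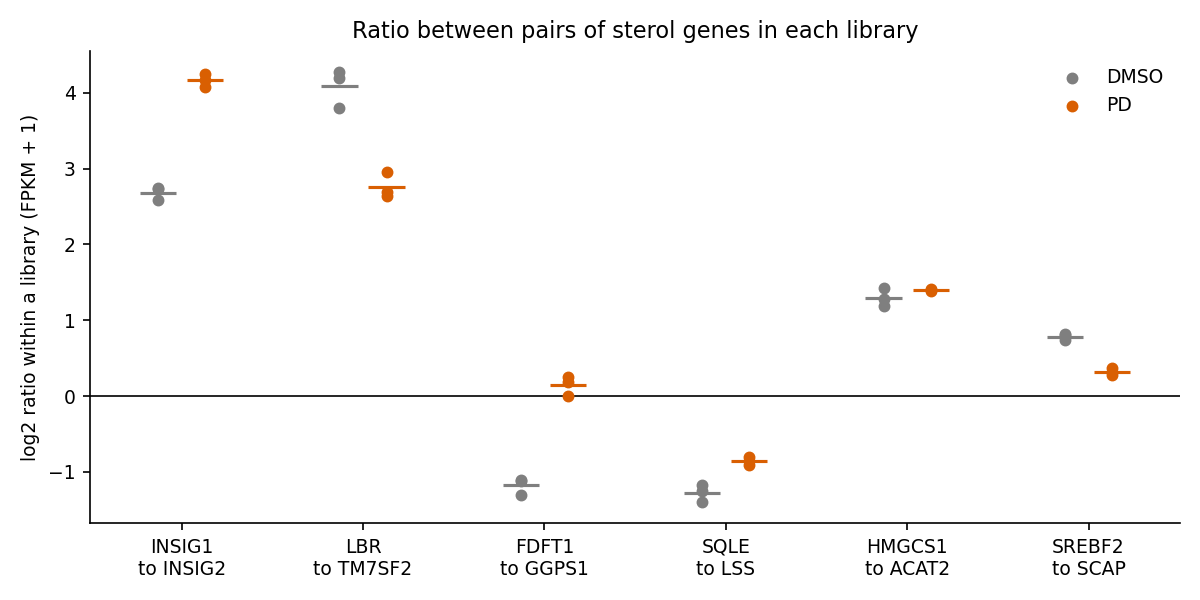
Log2 ratio of 2 sterol genes within a library, from FPKM + 1 (y axis), for 6 pairs (x axis), with points for the 3 DMSO and 3 PD libraries and short lines for the means. The treatments separate for every pair but HMGCS1 to ACAT2, whose exact permutation p was 0.40.

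The genes of uptake and transport all rose, each by less than 1.5-fold on the log2(FPKM + 1) scale. MYLIP, a ubiquitin ligase that lowers the uptake of lipoproteins, was at 4.37, 4.52 and 4.49 FPKM with DMSO and 6.60, 7.39 and 7.22 FPKM with PD. The PD libraries were all higher (log2 fold change 0.56, SE 0.05, adjusted p = 0.00011). STARD4, a carrier of cholesterol in the cytosol, was at 6.81, 7.75 and 5.91 FPKM with DMSO and 8.78, 8.55 and 8.33 FPKM with PD. Its treatments did not overlap although the DMSO libraries were spread (log2 fold change 0.29, SE 0.08, adjusted p = 0.019). It did not pass without PD replicate 1 (0.28), without PD replicate 2 (0.29) or with no filter on FPKM (0.29), where more genes were tested. TMEM97, a membrane protein of the endoplasmic reticulum linked to cholesterol handling, was at 22.7, 24.7 and 21.98 FPKM with DMSO and 28.9, 28.4 and 28.03 FPKM with PD, with all PD libraries higher (log2 fold change 0.29, SE 0.05, adjusted p = 0.0015). The median of these 3 genes was 0.29.

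With DMSO the highest levels per length were those of INSIG1 at 33.7 FPKM, LBR at 33.02, LSS at 32.7, PMVK at 32.5, SREBF2 at 31.8 and DHCR7 at 31.5, and neighbours in this order overlapped between libraries. A gap followed to GGPS1 at 24.1 FPKM, and the order ended with CYP51A1 at 2.77 and TM7SF2 at 1.003 FPKM, which did not overlap. With PD, INSIG1 remained first at 106 FPKM, DHCR7 moved from place 6 to place 2, and LBR moved from place 2 to place 11. The spread between plates was small, with a median coefficient of variation of 5.45% with DMSO and 3.87% with PD.

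Reads could be shared with other genes for 16 of the 30, because 15 have exons that overlap another annotated gene and 5 have named pseudogenes. Of these 16, 13 rose and 2 were called at 2-fold, and their median log2 fold change was 0.34. Of the 14 others, 12 rose and 3 were called, with a median of 0.57. INSIG1, DHCR7 and SQLE were among the 14, and FDFT1 and TM7SF2 among the 16.

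Neighbouring pathways gave the context. Of 82 related genes in 6 lists, with SREBF1 (in 3 of them) counted once, 78 were in the table, 68 were tested, 36 rose, 9 fell and 4 were called at 2-fold, all higher. Over all genes tested the shares were 31.9% higher, 26.2% lower and 2.04% called higher at 2-fold, and the counts of the lists below are to be read against them. SREBP1 and fatty acid synthesis had the list median nearest to that of the sterol genes, with 11 of 13 genes higher, none lower and a median change of 0.52 (log2). ACSS2, which makes acetyl-CoA from acetate, was at 8.01, 8.46 and 8.08 FPKM with DMSO and 25.001, 25.1 and 24.9 FPKM with PD (ratio of means 3.05, adjusted p = 1.3e-06). SCD, which puts a double bond into fatty acids, was at 284, 308 and 282 FPKM with DMSO and 603, 646 and 619 FPKM with PD (log2 fold change 1.09, adjusted p = 3.4e-06). FASN, the fatty acid synthase, rose from a mean of 56.9 to 102 FPKM (log2 fold change 0.83, adjusted p = 1.3e-05). In this list every PD library was above every DMSO library for these 3 genes.

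In sterol transport and storage, 8 of the 15 genes tested rose and 1 fell, with a median of 0.11. NPC2, which carries cholesterol out of the lysosome, was at 11.7, 12.5 and 12.9 FPKM with DMSO and 37.5, 37.8 and 36.1 FPKM with PD (log2 fold change 1.51, adjusted p = 1.9e-06). LIPA, the lysosomal lipase that frees cholesterol from its esters, was at 7.17, 6.76 and 6.85 FPKM with DMSO and 17.5, 18.3 and 18.8 FPKM with PD (log2 fold change 1.28, adjusted p = 2.9e-06). SOAT1, which makes cholesterol esters for storage, was at 53.1, 58.5 and 57.5 FPKM with DMSO and 32.98, 31.3 and 31.2 FPKM with PD (log2 fold change −0.80, adjusted p = 1.1e-05). NCEH1, the other ester hydrolase of the list, did not pass the test (log2 fold change 0.01, adjusted p = 0.94), so that of these 3 enzymes LIPA rose and SOAT1 fell.

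Of the genes of SREBP trafficking and sterol-regulated degradation, 11 of 20 rose and 4 fell (median 0.17). RNF145, a ubiquitin ligase of the endoplasmic reticulum, fell from 23.4 to 13.7 FPKM (log2 fold change −0.73, adjusted p = 1.4e-05). SEC24D, of the coat that carries cargo to the Golgi, rose from 2.91 to 5.03 FPKM (log2 fold change 0.63, adjusted p = 0.00012), and ERLIN2 rose by 0.58 on the log2 scale (adjusted p = 3.8e-05). Of the LXR and efflux genes, 7 were tested and 5 rose, none fell, and the median was 0.37. The sterol exporter ABCG1 rose by 0.86 and LPCAT3, which remodels phospholipids, by 0.62 on the log2 scale (limma adjusted p = 7.4e-06 and 9.0e-05). Other users of isoprenoids, such as the prenyltransferases, had 3 of 14 genes higher, 4 lower and a median of −0.08, shares near those of all genes. RABGGTB fell to 8.04 from 12.2 FPKM (log2 fold change −0.55, adjusted p = 7.3e-05), and DHDDS and ICMT rose by 0.41 and 0.38 (adjusted p = 0.00041 and 0.00092). In sterol breakdown 1 of the 6 genes in the table reached the level needed for the test, HSD3B7, with a log2 fold change of 0.28 and an adjusted p of 0.057.

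**Figure D4:**
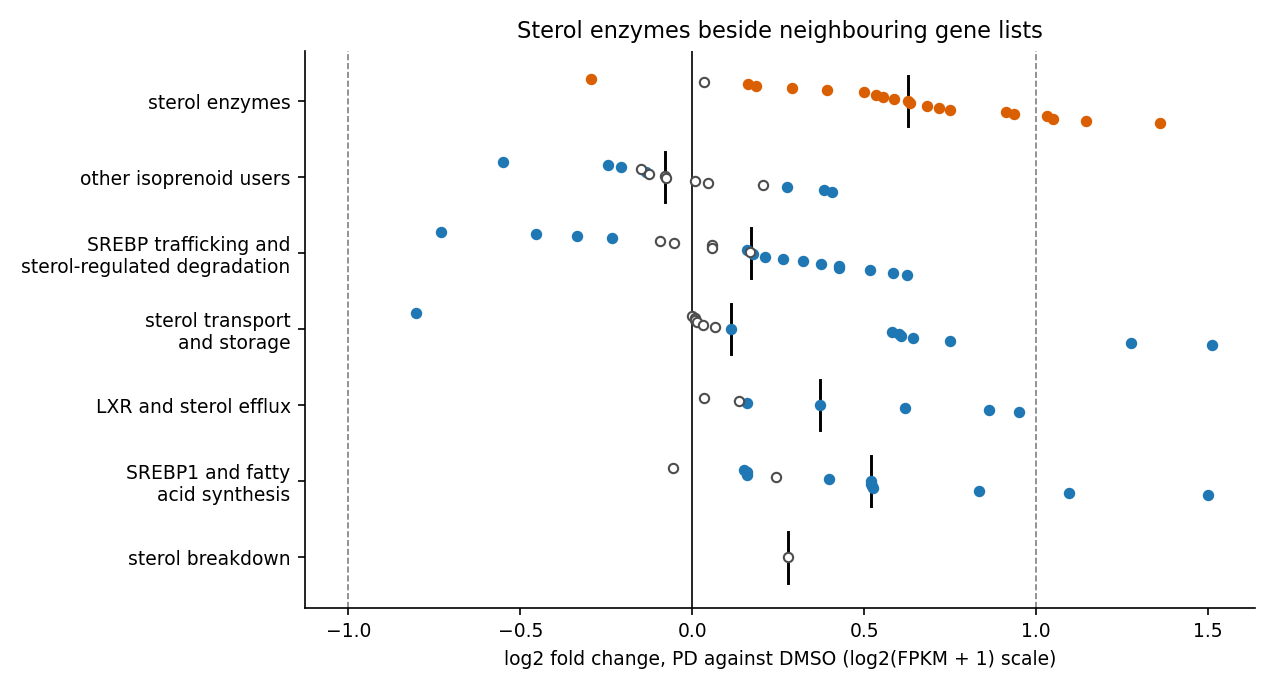
Log2 fold change of PD against DMSO (x axis, log2(FPKM + 1) scale) for each tested gene of the 21 sterol enzymes (ERG28 and GGPS1 included) and of 6 related lists (y axis). Filled points are genes at an adjusted p of at most 0.05, open points the others, and a black line marks the median of the list. The medians were 0.63 for the sterol enzymes, 0.52 for fatty acid synthesis and −0.08 for other isoprenoid users.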

How the data were processed

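RNA of 3 DMSO-treated and 3 PD-treated plates was analysed, with groups taken from the sample labels. The authors selected poly(A) RNA, aligned reads to hg38 with HISAT2, counted on genes with HTSeq 0.6.0 and deposited FPKM for 28563 genes in 6 libraries. Whether counting used strand is not given in the sources used here, and the dose differs between the labels and the study's methods.

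PD was compared with DMSO by limma 3.58.1 in R 4.3.3, on log2(FPKM + 1) with an intensity trend and no covariates, over 14400 genes (mean FPKM of 0.5 or more), with Benjamini-Hochberg adjustment. The adjusted p threshold was 0.05, with a 2-fold threshold for called genes. FPKM are multiples of a step set by 1 fragment, so whole fragments were worked back for all genes, from GENCODE 44 exon lengths for 12772 and from the common step of the values for 15791. Each sterol gene had 50 to 6964 fragments in a library. Tested on simulated data for PD against DMSO, the fit called 195 of 200 changed genes among 14432. Ratios were compared by exact permutation tests (scipy 1.17.1). Alternatives were the pseudocount, the filter, the scaling, limma voom on fragments, a replicate block and each library left out.

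Values in every library are given for genes changed by at least 1.5-fold and for 10 chosen genes, and the 3 largest changes of each related list are named. The genes and lists were chosen with earlier results of these data known. Some genes of the pathway and of the lists are not reported here.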

Additional observations from a re-analysis of the deposited data

How the results depend on the processing

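Beside the reported fit, 12 other settings were run, and of the 360 log2 fold changes of the 30 sterol genes under them 345 kept their direction and their side of the adjusted p threshold, 11 no longer passed, 1 newly passed and 3 changed sign. The sign changes were those of GGPS1, which did not pass in any setting: −0.012 with upper quartile scaling, −0.0010 with median-of-ratios scaling and −0.016 without PD replicate 1, within −0.016 to 0.066 with a library left out. Losses were those of ACAT2 (2 settings), FDPS (5), MBTPS2 (1) and STARD4 (3), all small changes. The count of genes higher was 24 to 25 in the other settings and 22 to 25 with a library left out, and the count lower was 1 to 2 with a library left out (1 without PD replicate 2). In the settings run, 5 genes were called at 2-fold, but 4 without DMSO replicate 1 or without PD replicate 3, where TM7SF2 was at 0.99 and 0.98. Without DMSO replicate 2 the 5 held MSMO1 (1.04) in place of TM7SF2 (0.98). Median log2 fold changes moved as follows. With upper quartile scaling they were 0.19 up to mevalonate, 0.50 from mevalonate to isoprenoids, 0.66 from lanosterol to cholesterol and 0.10 for the control genes. From mevalonate to isoprenoids and from lanosterol to cholesterol they were 0.59 and 0.74 with a pseudocount of 0.1, and 0.59 and 0.74 with voom, and the latter was 0.67 with median-of-ratios scaling. With a library left out the ranges were 0.64 to 0.73 for lanosterol to cholesterol, 0.12 to 0.19 for the control genes and 0.25 to 0.38 for uptake and transport. CCAAT matched 10 windows on the strand of the gene alone. Causes were not tested. Over all genes, 294 were called higher and 226 lower at 2-fold, 698 and 550 with a pseudocount of 0.1 and 1042 and 772 with voom. Of all genes at the adjusted p threshold, 4588 were higher and 3780 lower, and 4167 and 4264 with upper quartile scaling.

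The labels do not say whether replicate numbers pair the plates. Deviations of same-numbered libraries correlated at −0.03, −0.00 and 0.09, and those of other pairs at −0.08 to 0.08. Such values show no shared effect but cannot show whether plates were paired. With the replicate block 25 sterol genes were higher, 2 lower and 5 called at 2-fold. Precision is limited by 3 plates a treatment and, for TM7SF2, by as few as 50 fragments.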
